A study of Mus musculus with 12 samples.

Results

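The 8 genes described here encode the cyclins that act in the G1 phase of the cell cycle and the kinases they switch on: the D cyclins Ccnd1, Ccnd2 and Ccnd3, the E cyclins Ccne1 and Ccne2, and the cyclin-dependent kinases Cdk2, Cdk4 and Cdk6. They were chosen by name, and all 8 were found among the 48709 genes of each deposited table. The cells came from the bone marrow of wild-type (WT) mice and were HSPC, the stem and progenitor cells that give rise to all blood lineages. They were transfected with control miR, miR184 or miR499, and RNA was taken from sorted cells. Extraction and sequencing followed 2 days after transfection, and levels were deposited as RPKM (reads scaled to the length of the gene and the size of the library). The 3 miR184 libraries stand in one table with controls 1 to 3, and the 3 miR499 libraries in another with controls 4 to 6, and each miRNA was set against the controls deposited beside it. All groups thus share the genotype, and all were transfected, but they differ in the miR that was used. The sources used here give neither the arm and dose of each miRNA nor the strain and age of the mice. Whether the replicates stem from different animals or cultures is not said, so a p-value here reflects the spread among these libraries alone, and that spread may be technical.

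In G1, growth signals raise the D cyclins, which bind CDK4 or CDK6 and begin to phosphorylate the retinoblastoma protein. This releases E2F transcription factors, whose targets include the E cyclins. Cyclin E with CDK2 completes the phosphorylation and starts DNA replication. In the blood system, CDK6 and cyclins D2 and D3 are the forms best known for driving the division of progenitors, and cyclin D3 also acts in maturing red and lymphoid cells. A miRNA lowers the level or translation of transcripts whose 3′ untranslated region (3′ UTR) pairs with its seed, the bases 2 to 8 from its 5′ end.

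The mature sequences of both arms of each miRNA, from RefSeq on GRCm38.p6, are shown because their seeds set which transcripts can pair with them. The seed is in capitals. Mir184 lies on chromosome 9, minus strand, and Mir499 on chromosome 2, plus strand. The seeds of the 4 arms all differ.
miR-184-3p: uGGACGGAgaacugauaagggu
miR-184-5p: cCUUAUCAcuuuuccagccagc
miR-499-5p: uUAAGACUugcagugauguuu
miR-499-3p: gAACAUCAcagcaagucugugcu

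The longest annotated 3′ UTR of each of the 8 genes (GENCODE M21, the assembly of mm10) was searched for these seeds. An 8mer pairs with all 7 seed bases and has an A opposite base 1 of the miRNA, a 7mer-m8 lacks that A, and a 7mer-A1 has it but does not pair with base 8. For miR-499-5p these are AGTCTTAA, AGTCTTA and GTCTTAA. Matches to miR-499-5p stood in 3 of the 8 genes, Cdk6, Ccnd3 and Ccnd1, against 17.0% of the 9096 tested genes of the miR499 table with an annotated 3′ UTR. Cdk6 held 2 8mers, at bases 2555 and 9385 of a 3′ UTR of 10217 bases, which is far longer than the median of 1064 bases. The 4 matches are printed in the sense of the transcript, with the matching bases in capitals. They lie at chr5:3523335-3523364 and chr5:3530165-3530194 on the plus strand for Cdk6, chr17:47599309-47599338 on the plus strand for Ccnd3, and chr7:144932388-144932417 on the minus strand for Ccnd1.
Cdk6 8mer at base 2555: gtattctttagAGTCTTAAgtatagagttt
Cdk6 8mer at base 9385: gcctagaacacAGTCTTAAaagcatttggg
Ccnd3 7mer-A1 at base 544: gtgattgtgggGTCTTAAgggtgccgtggt
Ccnd1 7mer-A1 at base 201: atctgaaagctGTCTTAAagagagagagag

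For miR-184-3p the only match was a 7mer-A1 in Cdk6, at base 3800 of its 3′ UTR (chr5:3524580-3524609, plus strand). Such matches stood in 4.88% of 9663 genes. No match to miR-184-5p was found in the 8 genes.
Cdk6 7mer-A1 of miR-184-3p: agaaagctgtgCCGTCCAccctgcaatggg

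For miR-499-3p there were 3 matches in Ccnd2, 3 in Cdk6 and 1 in Cdk2, so 3 of 8 genes held one, against 18.5% of all tested genes. Ccne1, Ccne2 and Cdk4, whose 3′ UTRs span 531, 1681 and 899 bases, held no 8mer or 7mer of any of the 4 arms. In another annotated 3′ UTR of Ccnd2 a match to miR-499-5p was also present, which made 4 of 8 genes against 18.0% of all genes when every annotated 3′ UTR was searched. A match is a string of letters and not a measured site.

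**Figure D1:**
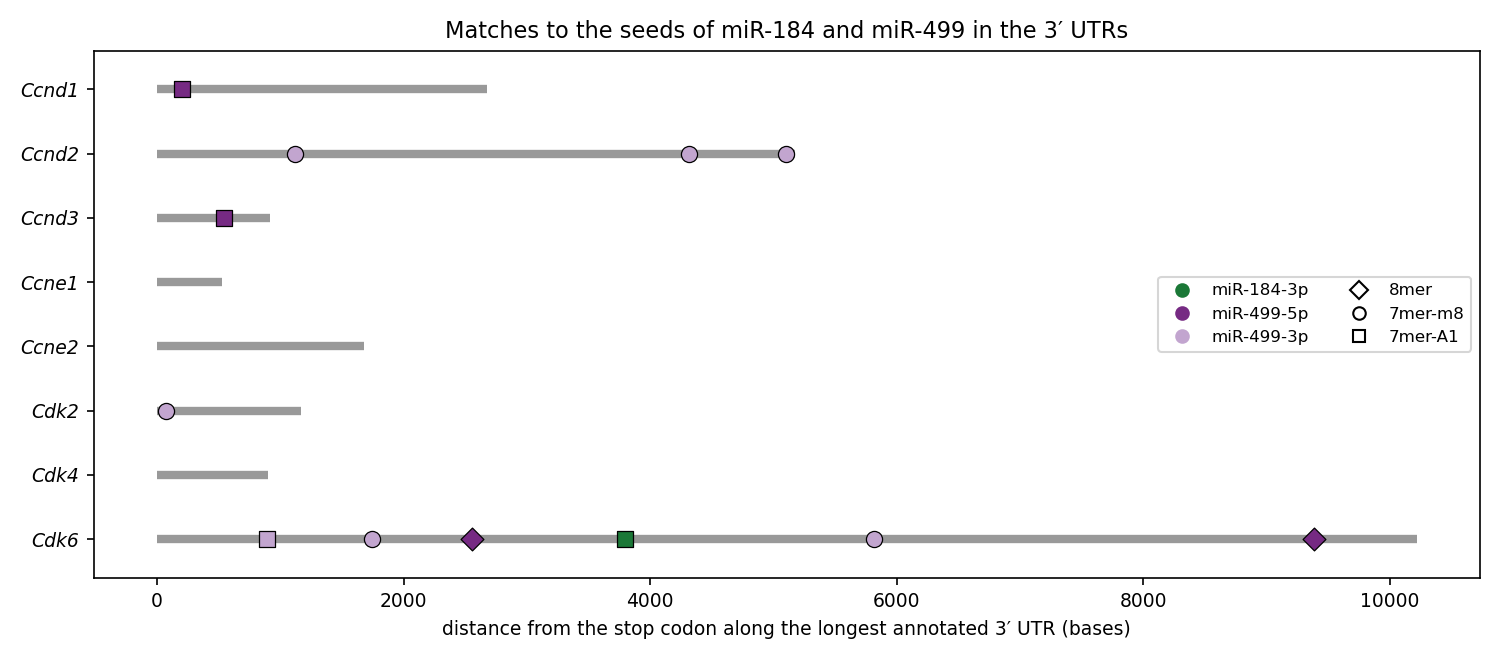
Position of each seed match (symbols, coloured by arm and shaped by type) along the longest annotated 3′ UTR of the 8 genes (grey lines), as distance from the stop codon in bases. Cdk6 has the longest 3′ UTR and both 8mers of miR-499-5p, while Ccne1, Ccne2 and Cdk4 carry no match.

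The libraries held 31990355 to 46601798 reads. Reads recovered from the RPKM steps numbered 750 to 36731 per library for the 8 genes, and the counting error of a single value was at most 3.65%, at the fewest reads of Ccnd1. The label HSPC was checked against 9 markers, all of which were detected in every library. Among them were Kit at 8.17 to 57.1 RPKM, Cd34 at 53.6 to 122 and Gata2 at 25.1 to 51.1. Markers of committed cells were high as well, such as the basophil marker Mcpt8 at 343 to 1872 RPKM and the megakaryocyte marker Pf4 at 454 to 1576. Detection of the 9 markers thus does not show how pure the cells were. The T cell markers Cd3e and Cd3g summed to at most 0.18 RPKM in 11 libraries and to 1.43 in miR184 3, all of it Cd3g. The B cell marker Cd79a was also highest in miR184 3, at 1.66 RPKM against 0.142 to 0.256 in controls 1 to 3, and Ebf1 was at or below 0.037 RPKM in every library. The library miR499 3 stood apart. On the log2(RPKM + 1) scale its mean correlation was 0.945 with its own table and 0.959 with the other table, whereas the other 11 libraries had means of 0.976 to 0.991 in their own table and 0.892 to 0.926 with the other (a description over 9566 genes, with all pairs within a table sharing its processing). The 0.976 was that of miR184 3, which thus also differed from the other libraries of its table, at 0.989 to 0.991. Fewer genes were above 0 in miR184 3, 13675 in all, than in the other libraries of its table, which had 16702 to 17136. Results for the 8 genes that change without these libraries are given both ways.

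In control HSPC, Cdk4 was by far the highest of the 8 genes on the length-scaled RPKM scale. It stood at 176 ± 1.27 RPKM in controls 1 to 3 and 242 ± 9.49 in controls 4 to 6 (SD, n = 3 each). In controls 1 to 3 it was followed by Ccnd3 at 53.7 ± 0.818, Cdk6 at 47.2 ± 0.293, Cdk2 at 43.3 ± 1.35 and Ccnd2 at 37.2 ± 1.04 RPKM. Ccne2 at 18.2 ± 1.46, Ccnd1 at 7.38 ± 0.243 and Ccne1 at 7.24 ± 0.664 RPKM closed the order. Only Ccnd1 and Ccne1 overlapped as neighbours in that order. In controls 4 to 6 the order after Cdk4 was Ccnd2 (48.9 ± 1.76), Cdk6 (44.1 ± 0.867), Cdk2 (37.2 ± 1.77) and Ccnd3 (32.4 ± 0.479 RPKM), then Ccne2 (16.7 ± 0.366), Ccne1 (10.1 ± 0.484) and Ccnd1 (4.61 ± 0.535 RPKM). No neighbours overlapped there. Ccnd3 thus ranked above Cdk6 in one set of controls and below Cdk2 in the other. The tables were made separately, and levels across them were not tested.

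**Figure D2:**
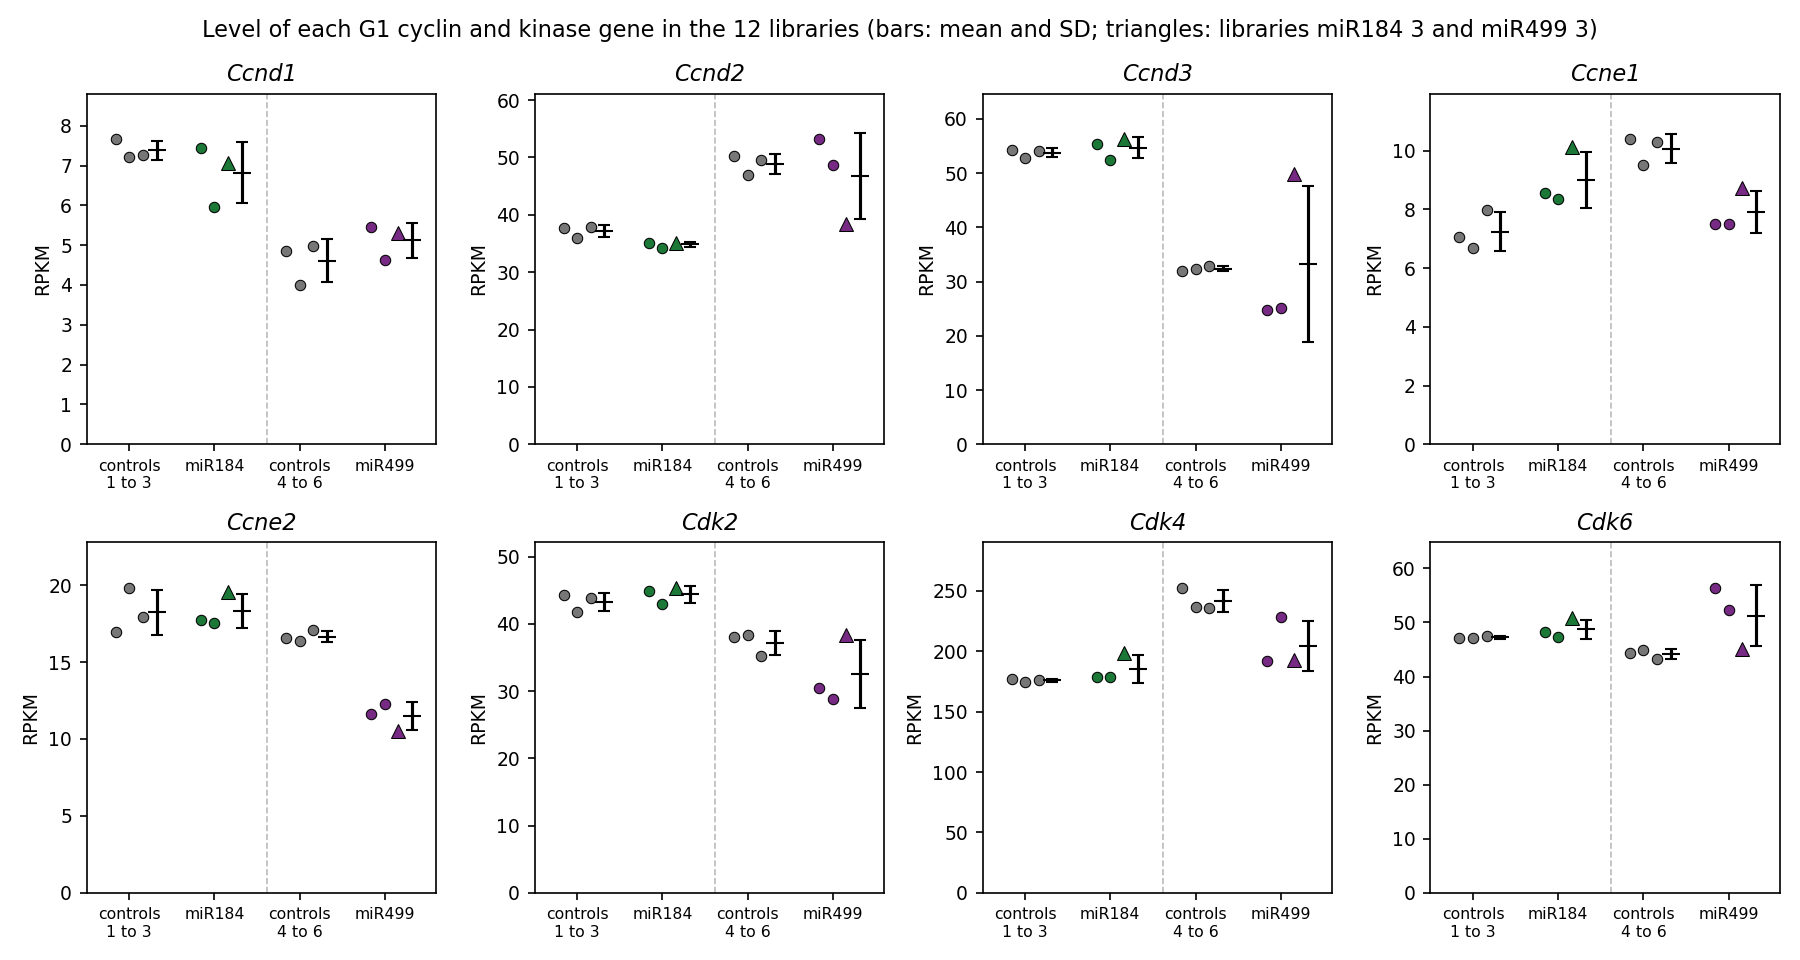
RPKM of each gene (vertical axis, from 0) in the 12 libraries, by group, with the mean and SD of 3 libraries as bars and the libraries miR184 3 and miR499 3 as triangles. With miR499 the 3 values of Ccne2 lie between 10.5 and 12.3 RPKM, all below controls 4 to 6, and Ccnd3 splits into 24.7 and 25.2 against 49.9 in miR499 3.

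To see how miR184 altered the G1 machinery, its libraries were set against controls 1 to 3. Most of the 8 genes stayed near their control level. Ccne1, the E cyclin with the lower level, stood at 7.07, 6.69 and 7.98 RPKM in controls 1 to 3 and at 8.55, 8.35 and 10.1 RPKM in miR184 1 to 3. All miR184 values were thus above all control values, and the difference on the log2(RPKM + 1) scale was 0.28 ± 0.10 (SE). Ccne2 did not share this pattern, with 17.0, 19.8 and 17.9 RPKM in controls and 17.7, 17.6 and 19.6 with miR184.

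Among the D cyclins, Ccnd2 was slightly lower with miR184, at 35.1, 34.3 and 35.1 RPKM against 37.6, 36.0 and 37.9 in controls 1 to 3. The groups did not overlap, and the log2 difference was -0.09 ± 0.05 (SE). Ccnd1 stood at 7.43, 5.97 and 7.07 RPKM against 7.66, 7.22 and 7.26, and Ccnd3 at 55.4, 52.5 and 56.3 against 54.3, 52.8 and 54.1, both with overlapping groups.

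Of the kinases, Cdk4, partner of the D cyclins, stood at 179, 179 and 198 RPKM with miR184 and at 177, 175 and 176 in controls. The groups did not overlap, but the margin rested on miR184 3: without it the log2 difference was 0.02 ± 0.04 in place of 0.07 ± 0.05 (SE). Cdk6, which carries the single match to miR-184-3p, stood at 48.2, 47.2 and 50.7 RPKM against 47.1, 47.1 and 47.6, and the 95% interval of its log2 difference ran from -0.07 to 0.16. Cdk2, partner of the E cyclins, had a log2 difference of 0.04 ± 0.05.

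None of the 8 genes passed the test with miR184, which was limma on all 10372 genes at an adjusted p of 0.05. In all, 0% of the tested genes passed, with 475 at an unadjusted p under 0.05. Limma voom on recovered reads also called 0, with 489 under that unadjusted threshold. Control and miR184 libraries did not overlap in 3 of the 8 genes, against 11.7% of all genes. Ccne1 and Cdk4 were above their controls, as were 7.3% of all genes, and Ccnd2 was below, as were 4.41%. The same 3 genes did not overlap without miR184 3, against 21.8% of all genes, 13.2% above and 8.59% below. Ccne1 had the smallest unadjusted p of the 8, 0.028 by limma, and an adjusted p of 0.827. Its log2 difference was 0.20 ± 0.08 without miR184 3, again with no call (adjusted p = 0.685, limma). The 95% intervals of the 8 log2 differences reached no further than 0.52 upwards, for Ccne1, and -0.32 downwards, for Ccnd1.

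To see how miR499 altered the same genes, its libraries were set against controls 4 to 6. Both E cyclins were lower in all 3 miR499 libraries. Ccne2 stood at 16.6, 16.4 and 17.1 RPKM in controls and at 11.6, 12.3 and 10.5 with miR499, a mean of 0.689 times the control mean. The log2 difference was -0.50 ± 0.12 (SE), and miR499 3 had the lowest value. Ccne1 stood at 10.4, 9.52 and 10.3 RPKM in controls and at 7.51, 7.5 and 8.74 with miR499, a log2 difference of -0.31 ± 0.13. The summed level of both E cyclins was 25.9 to 27.4 RPKM in controls 4 to 6 and 19.1 to 19.8 with miR499. Ccne2 made up 54.6% of that sum in miR499 3, against 60.7% and 62.1% in miR499 1 and 2. The sum moves with the scaling of a library, and whether one E cyclin offset the other was not tested. Neither gene carries a seed match.

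The kinases of the D cyclins lay on opposite sides of their controls. Cdk4 stood at 253, 236 and 236 RPKM in controls 4 to 6 and at 192, 229 and 193 with miR499, below them in every library, with a log2 difference of -0.24 ± 0.13 (SE). Cdk6 stood at 44.3, 44.9 and 43.2 RPKM in controls and at 56.4, 52.3 and 45.2 with miR499, with a log2 difference of 0.21 ± 0.12. Every miR499 library was above the controls, but miR499 3 only narrowly, at 45.2 against 44.9 RPKM in control 5. The counting error of a Cdk6 value was up to 0.78%. With all 6 libraries rescaled by the median of ratios, the log2 difference of Cdk6 was 0.14 ± 0.20. Cdk6 is the gene with both 8mers of miR-499-5p printed above, and its level was not lower in any miR499 library. As a result the share of Cdk6 in the summed RPKM of Cdk4 and Cdk6 was 14.9% to 16.0% in controls 4 to 6 and 22.7%, 18.6% and 19.0% in miR499 1 to 3. That shift was not tested, and it restates the values of Cdk4 and Cdk6 just given. Of all single genes in the miR499 table, 24.2% did not overlap either. With miR184 the share of Cdk6 was 20.38% to 21.26%, against 20.97% to 21.29% in controls 1 to 3.

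Ccnd3 and Cdk2 separated the miR499 libraries among themselves. Ccnd3 stood at 31.9, 32.4 and 32.9 RPKM in controls 4 to 6 and at 24.7 and 25.2 in miR499 1 and 2, but at 49.9 in miR499 3. The last value is near the 52.5 to 56.3 RPKM of the miR184 table. Cdk2 stood at 38.0, 38.4 and 35.2 RPKM in controls, at 30.5 and 28.9 in miR499 1 and 2, and at 38.3 in miR499 3. That last value lay within its own controls and below the 41.7 to 45.4 RPKM of the miR184 table. Ccnd2 showed the reverse split, with 53.2 and 48.7 RPKM in miR499 1 and 2 and 38.4 in miR499 3, against 50.2, 46.9 and 49.5 in controls, and 34.3 to 37.9 in the miR184 table. Ccne2 in miR499 3 was not near the miR184 table, at 10.5 RPKM against 17.0 to 19.8. Ccnd1, with a 7mer-A1 of miR-499-5p, overlapped its controls at 5.45, 4.62 and 5.30 RPKM against 4.86, 4.0 and 4.98.

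The composition of the D cyclins followed these values. Ccnd3 made up 36.7% to 38.9% of their summed RPKM in controls 4 to 6, 29.7% and 32.1% in miR499 1 and 2, and 53.3% in miR499 3. In the miR184 table Ccnd3 made up 54.5% to 55.0% in controls and 56.6% to 57.1% with miR184, so those groups did not overlap. That shift was not tested, and it partly restates the lower Ccnd2 given above, which is in the same sum. Of all single genes in that table, 11.7% did not overlap either. With miR499 the controls lay inside the range of the 3 libraries. The summed D cyclin level was 83.3 to 87.4 RPKM in controls 4 to 6 and 78.5 to 93.7 with miR499. These shares are ratios within a library and do not move with its scaling.

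**Figure D3:**
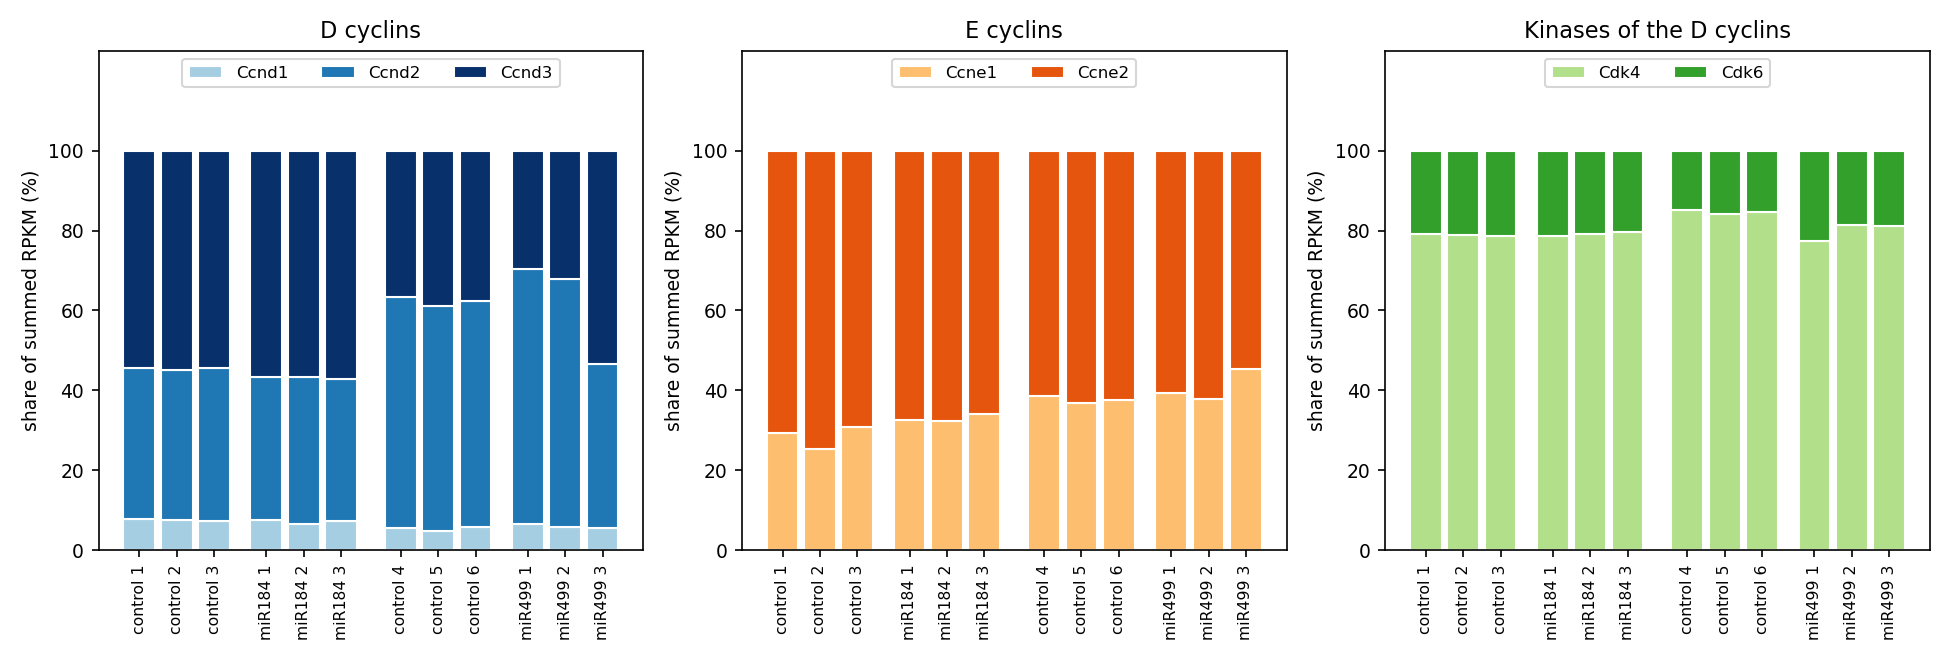
Share (%) of each gene in the summed RPKM of the D cyclins, of the E cyclins, and of Cdk4 with Cdk6, 1 stacked bar per library. Cdk6 takes 18.6% to 22.7% of the kinase sum with miR499 against 14.9% to 16.0% in controls 4 to 6, and Ccnd3 takes 53.3% of the D cyclin sum in miR499 3. The shares were not tested, and 24.2% of all single genes did not overlap between miR499 and its controls.

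With all 6 libraries none of the 8 genes passed limma over 9815 genes, and 0% of all genes did. An unadjusted p under 0.05 was found for 992 genes, and limma voom on recovered reads called 0, with 967 under that unadjusted threshold. The smallest unadjusted p of the 8 was that of Ccne2, 0.0041, with an adjusted p of 0.491 by limma. Control and miR499 libraries did not overlap in 4 of the 8 genes, against 24.2% of all genes. Ccne1, Ccne2 and Cdk4 were below their controls, as were 12.8% of all genes, and Cdk6 was above, as were 11.4%. The 95% interval of Ccnd3 ran from -0.67 to 0.59 on the log2 scale, so a sizeable change in either direction could not be told from none.

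Without miR499 3, 5 of the 8 genes passed, against 17.1% of all genes. Ccne2 fell by 0.45 ± 0.08 (SE) on the log2 scale (adjusted p = 0.012, limma), Ccne1 by 0.38 ± 0.09 (adjusted p = 0.025, limma) and Ccnd3 by 0.37 ± 0.07 (adjusted p = 0.015, limma). Cdk2 fell by 0.31 ± 0.08 (adjusted p = 0.027, limma), and Cdk6 rose by 0.29 ± 0.07 (adjusted p = 0.027, limma). Genes that passed were 13.7% of all genes in the downward and 3.47% in the upward direction. Cdk4, with a log2 difference of -0.20 ± 0.09 (adjusted p = 0.132, limma), Ccnd1 with 0.11 ± 0.12 and Ccnd2 with 0.06 ± 0.07 did not pass.

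When the 5 libraries were also rescaled by the median of ratios, 14% of all genes passed, 4.75% upward and 9.27% downward. Ccnd3, Ccne1, Ccne2 and Cdk6 passed again, and Cdk2 did not (log2 difference -0.28 ± 0.08, adjusted p = 0.054, limma). Of all calls, 20.3% were upward with the deposited scaling and 33.9% with the median of ratios. Without miR499 3, 6 of the 8 genes did not overlap with their controls, against 52% of all genes. Cdk6 was above (17.9% of all genes) and Ccnd3, Ccne1, Ccne2, Cdk2 and Cdk4 were below (34.1%). The library was left out because it stood apart, a choice made with its values known, and which cells it held was not tested.

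**Figure D4:**
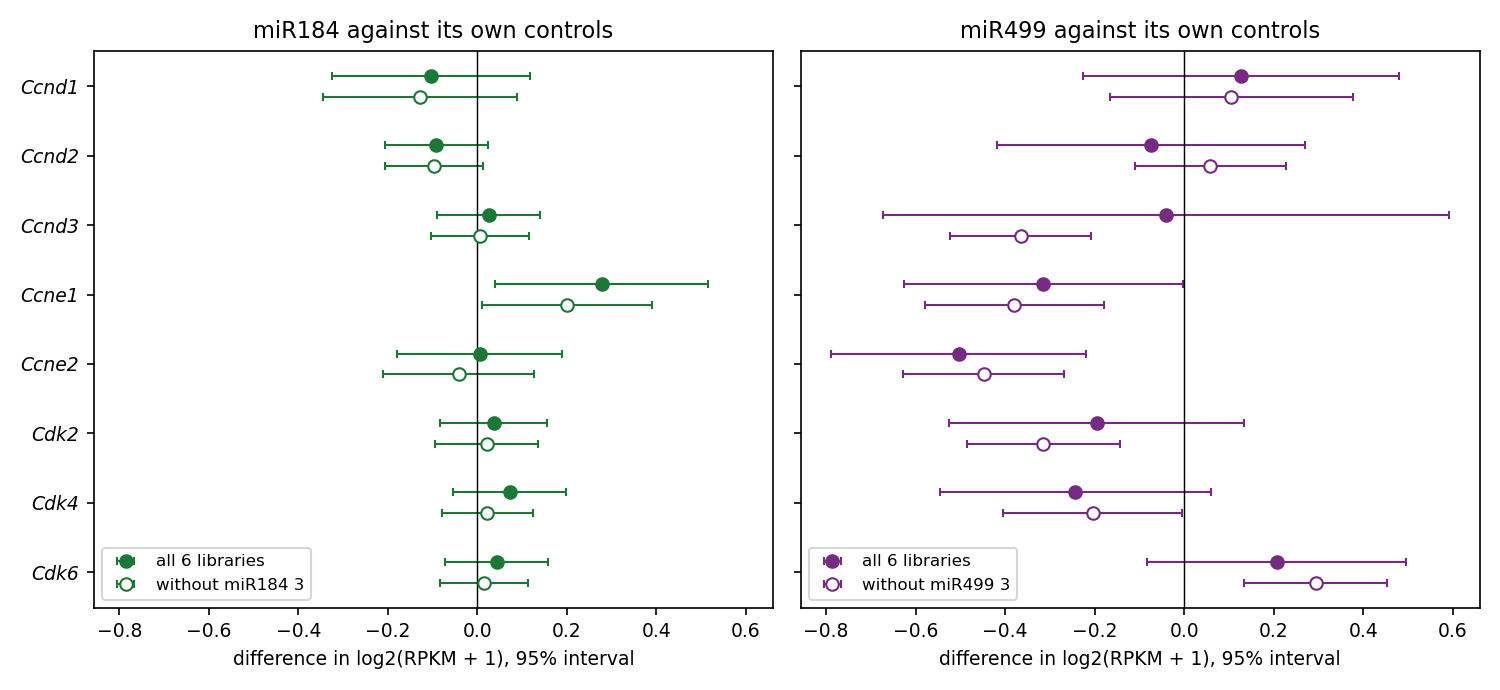
Difference in log2(RPKM + 1) between each miRNA and its own controls, with 95% intervals from limma, for all 6 libraries (filled) and without the library 3 of each miRNA (open). The intervals of Ccnd3 with miR499 narrow from -0.67 to 0.59 with all libraries to -0.52 to -0.21 without miR499 3, and the miR184 values lie close to 0 apart from Ccne1.

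Markers of other blood cells differed between the same libraries, and their part in these results was not tested. The 9 HSPC markers, 6 higher and 3 lower, summed to 403 to 464 RPKM in controls 4 to 6 and 383 to 481 with miR499. Of the 7 neutrophil markers, 6 were used. Their summed level was 413 to 719 RPKM in controls 4 to 6 and 810 to 1377 with miR499, highest in miR499 3, and was made up mostly of S100a8 and S100a9. Of the 4 tested, 2 were higher and 2 lower, and Ltf was at 0 in miR499 2 and miR499 3. The 4 mast cell and basophil markers, all lower on average, summed to 1912 to 2253 RPKM in controls and 1069 to 2709 with miR499, lowest in miR499 3. The 5 erythroid markers summed to 4.01 to 5.86 RPKM in controls and 3.12 to 21.97 with miR499, highest in miR499 3, where Hbb-bs reached 13.5. The 4 megakaryocyte markers summed to 1012 to 1738 and 1081 to 1693 RPKM, and the 4 monocyte and macrophage markers to 627 to 661 and 543 to 701 RPKM. The HSPC markers did not move together. Kit, the receptor that marks HSPC, stood at 8.17 to 9.24 RPKM in controls 4 to 6, while controls 1 to 3 held 53.8 to 57.1. It stood at 14.1 and 10.7 in miR499 1 and 2 and at 34.3 in miR499 3. Cd34 went the other way in miR499 1 and 2, at 60.1 and 53.6 RPKM against 82.4 to 85.7 in controls 4 to 6. In miR499 3 Cd34 stood at 91.1 RPKM. The entry Rn18s-rs5, which reports leftover ribosomal RNA, stood at 26.4 to 31.0 RPKM in controls and at 63.2, 43.6 and 114 in miR499 1 to 3. In these bulk samples, fewer cells of a type and less RNA per cell cannot be told apart.

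In the miR184 table the same sums overlapped between the groups, although all 4 mast cell and basophil markers and all 4 megakaryocyte markers were higher on average with miR184. Neutrophil markers summed to 277 to 845 RPKM in controls and 288 to 811 with miR184, mast cell and basophil markers to 651 to 758 and 714 to 1061, and erythroid markers to 6.63 to 8.19 and 8.17 to 10.4. The HSPC markers, 6 higher and 3 lower, summed to 543 to 640 and 535 to 597 RPKM. Megakaryocyte markers summed to 521 to 586 and 556 to 626, and monocyte and macrophage markers to 735 to 979 and 667 to 804. Rn18s-rs5 stood at 87.5, 82.1 and 66.7 RPKM in controls 1 to 3 and at 91.8, 97.7 and 85.7 with miR184. The entry Gm26917, which was also higher with miR499, stood at 106.4, 106.36 and 86.9 RPKM in controls and at 124, 138 and 119 with miR184, with no overlap. The part of these values in the higher Ccne1 was not tested.

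Whether the miRNAs differed was tested as the miR499 change minus the miR184 change, each against its own controls, in 1 limma fit of 12 libraries over 10214 genes. None of the 8 genes passed, nor did any other (0% of all genes), while 931 genes had an unadjusted p under 0.05. The E cyclins had the largest differences of the 8. That of Ccne1 was -0.59 ± 0.16 (SE) and that of Ccne2 -0.51 ± 0.14, both with an adjusted p of 0.527 by limma. Without miR499 3, 4 of the 8 passed, all in the direction of a lower value with miR499, against 7.72% of all genes, 7.1% in that direction and 0.627% in the other. These were Ccne1 at -0.66 ± 0.13 (adjusted p = 0.019, limma), Ccnd3 at -0.39 ± 0.08 (adjusted p = 0.017, limma), Cdk2 at -0.35 ± 0.09 (adjusted p = 0.034, limma) and Ccne2 at -0.45 ± 0.11 (adjusted p = 0.033, limma). Cdk6 stood at 0.25 ± 0.08 (adjusted p = 0.077, limma).

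The wider G1 pathway was read from 7 lists of genes around the cyclins. With all libraries 0 members of any list passed for either miRNA. Without miR499 3, the list of E2F target genes, which are switched on as cells enter S phase, had 8 of 16 members lower at the threshold and 0 higher, against 13.7% of all genes lower, and a median log2 difference of -0.25 against -0.06 over all genes. Rrm1 and Rrm2, subunits of the enzyme that makes deoxynucleotides, fell by 0.47 ± 0.09 and 0.41 ± 0.08, and the helicase subunit genes Mcm4, Mcm5, Mcm6 and Mcm7 fell by 0.30 to 0.42. With all 6 libraries Rrm1 stood at -0.16, Rrm2 at -0.34 and the 4 Mcm genes between -0.03 and 0.02. With the median of ratios added, 5 of the 16 passed, all lower, against 9.27% of all genes lower, and Mcm4, Mcm5 and Cdc45 no longer passed. With all 6 libraries 9 of the 16 were lower and 7 higher, and the list's median was -0.09, so this pattern depended on leaving out miR499 3. With miR184 10 were lower and 6 higher (median -0.02), and without miR184 3 this turned to 7 lower and 9 higher (median 0.02).

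In the other lists the counts without miR499 3 were small, and they are to be read against the 17.1% of all genes that passed in that comparison, 13.7% lower and 3.47% higher. Among the later cyclins, which act in S phase and mitosis, 2 of 5 passed, Ccnb1 with a fall of 0.49 ± 0.09 (adjusted p = 0.015, limma) and Ccnb2 with 0.30 ± 0.08 (adjusted p = 0.040, limma). Ccnb2 did not pass with the median of ratios added (adjusted p = 0.095, limma). In the list of Rb and E2F genes 2 of 13 passed, a share near that of all genes. Tfdp1, an obligate partner of E2F proteins, fell by 0.48 ± 0.07, and the activator E2f2 rose by 0.37 ± 0.10. E2f2 had a mean of 0.844 RPKM in its controls, under the filter of 1 RPKM. With all miR499 libraries its mean was 1.72 ± 0.59 RPKM (SD). E2f2 was thus tested only because of its level with miR499, and miR499 3 still counted in the filter. No conclusion is drawn from its call. Of the CDK inhibitors, 5 of 7 were tested and Cdkn1b, which encodes p27, rose by 0.38 ± 0.11 (adjusted p = 0.045, limma). Of 10 genes of cyclin turnover 2 passed, both lower: Cul1, the scaffold of the SCF ubiquitin ligase, fell by 0.58 ± 0.08 and the F-box gene Fbxo4 by 0.43 ± 0.10, again a share near that of all genes. Of 6 genes that activate or restrain CDKs, Pkmyt1, an inhibitory kinase of CDK1, fell by 0.31 ± 0.08, a call lost with the median of ratios added (adjusted p = 0.054, limma). None of the 5 tested upstream regulators passed with the deposited scaling, and Stat5a did with the median of ratios added (0.38 ± 0.10, adjusted p = 0.040, limma). Several of these values rested on leaving out miR499 3. With all 6 libraries the log2 difference was -0.16 for Tfdp1, 0.06 for Cdkn1b, -0.27 for Cul1 and 0.08, on the other side of 0, for Pkmyt1.

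With all 6 libraries the genes with the smallest p in each list did not pass for miR499, and their log2 differences are given as values. They were 0.54 for E2f2 and 0.35 for E2f3 among the Rb and E2F genes. Among the inhibitors they were 1.08 for Cdkn1c and -0.20 for Cdkn2d. In the controls of miR499, E2f2 and Cdkn1c had means of 0.844 and 0.873 RPKM, both under the filter of 1 RPKM. Cdk7 and Ccnh, which form the kinase that activates CDKs, had -0.38 and -0.35. Fbxo4 and Fbxw7, an F-box gene that marks cyclin E for breakdown, had -0.39 and 0.27. Ctnnb1 and Stat5a, upstream regulators of D cyclins, had 0.49 and 0.69. Without miR499 3 Stat5a stood at 0.35 and Cdkn1c at 0.58. The later cyclins Ccnb1 and Ccnb2 had -0.42 and -0.27, and the E2F targets Rrm2 and Tk1 -0.34 and -0.22. For the difference between the miRNAs the genes so chosen included E2f5 (-0.59), E2f8 (0.59) and Tyms (-0.22), with 0 passing. Without miR499 3 E2f8 stood at 0.28 and Tyms at -0.06.

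With miR184, the genes with the smallest p in their lists included Cdkn1c, which encodes the CDK inhibitor p57, with a log2 difference of 1.65 ± 0.32 (adjusted p = 0.385, limma), and Fbxo31, an F-box gene linked to cyclin D1 turnover, with 0.66 ± 0.12 (adjusted p = 0.385, limma). Cdkn1c stood at 4.14 ± 1.43 RPKM in controls 1 to 3 and 15.5 ± 5.67 with miR184 (SD, n = 3 each). Tfdp1 had 0.32 ± 0.08 with miR184 (adjusted p = 0.48, limma). Its difference between the miRNAs was -0.49 ± 0.29 with all 12 libraries (adjusted p = 0.578, limma). Without miR499 3 that difference was -0.80 ± 0.11 (adjusted p = 0.011, limma), so the call depended on leaving out that library. E2f5 had 0.48 ± 0.15 with miR184. The others were Cdkn2c (-0.11), Wee1 (0.15), Cdc25a (0.17), Skp1a (-0.23), Ctnnb1 (0.18), Notch1 (0.20), Ccnb1 (-0.13), Ccna2 (-0.09), Rrm1 (-0.10) and Cdt1 (-0.10), with log2 differences in parentheses. Without miR184 3 the values were 0.0048 for Notch1, 0.06 for Cdc25a, -0.10 for Skp1a, -0.05 for Cdkn2c, 0.12 for Ctnnb1, -0.04 for Rrm1 and -0.06 for Cdt1. Of the 13 Rb and E2F genes 11 were higher with miR184, with a median of 0.11, and 0 passed. Of all genes 50.6% were higher, with a median of 0.0022.

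**Figure D5:**
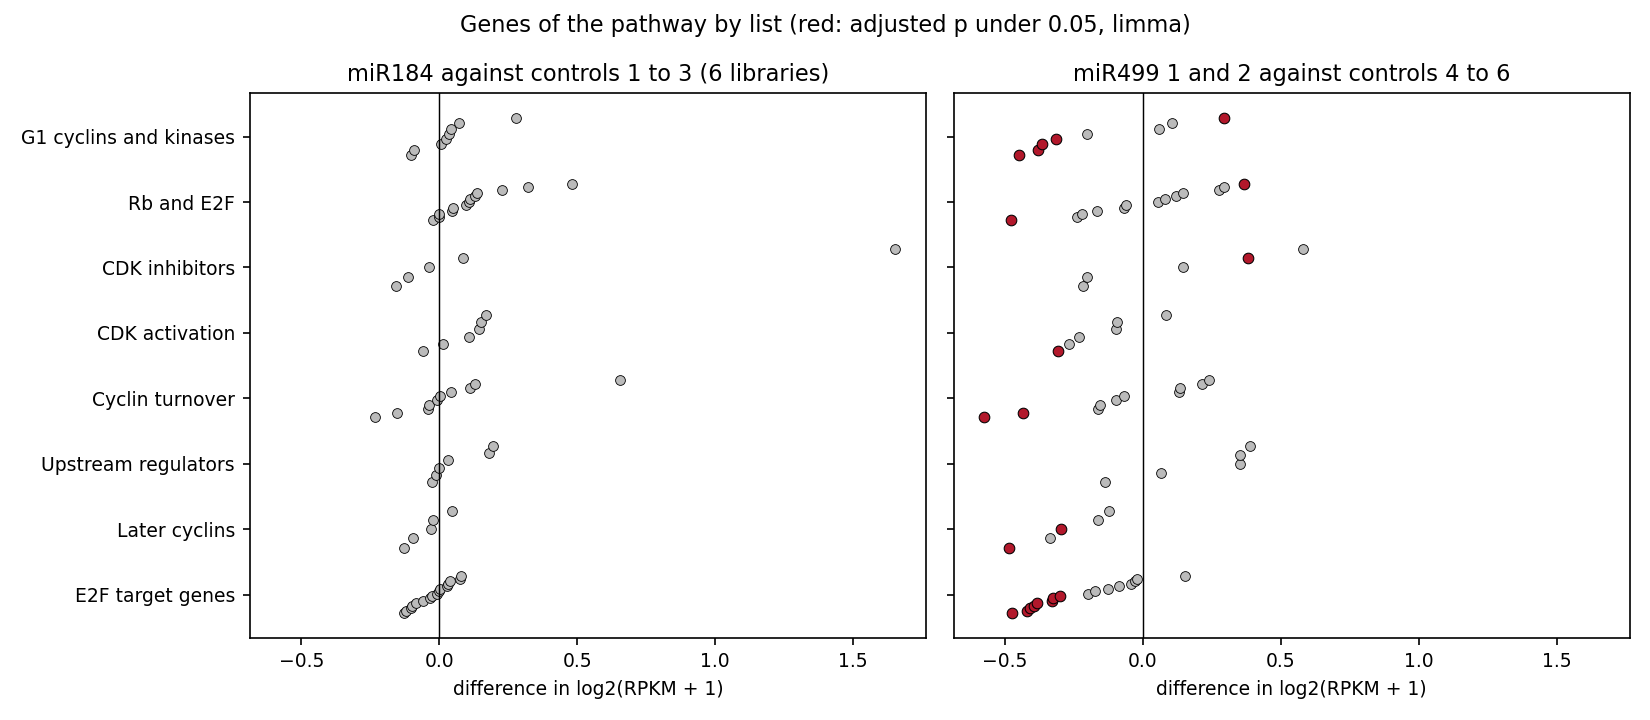
Difference in log2(RPKM + 1) of each tested gene, by list, for miR184 with all 6 libraries (left) and for miR499 1 and 2 against controls 4 to 6 (right), with genes at an adjusted p under 0.05 by limma in red. On the right, without miR499 3, 8 of 16 E2F target genes and 5 of the 8 G1 genes are red, against 17.1% of all genes. On the left none is, and with all 6 libraries none of these genes passed for miR499 either.

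The 8 genes did not vary as one block. Across the 12 libraries, each table centred on its own mean, the Spearman correlation was 0.818 between Ccnd3 and Cdk2, 0.769 between Ccne1 and Cdk4 and 0.608 between Ccne1 and Ccne2. It was -0.608 between Cdk6 and Cdk2 and -0.727 between Ccnd1 and Cdk4. Ccne2 was followed most closely by Eif1a (0.986) and Ythdf2 (0.979), Cdk2 by Farsa (0.979) and Dhodh (0.972), and Cdk4 by Suclg1 (0.972) and Katna1 (0.951), out of 5565 genes. Ccnd3 was followed by Cnn2 (0.951) and Tbc1d10c (0.944), and Ccne1 by Unc119 and Tpgs1 (both 0.937). Ccnd2 was followed by Plac8 (0.881) and Hcst (0.832), Cdk6 by Srrm2 (0.832) and Tpr (0.825), and Ccnd1 by Ddx10 (0.818) and mt-Nd3 (0.797). These are descriptions over 12 libraries that share depth and the library miR499 3.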

How the data were processed

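Total RNA of sorted cells was extracted with a pico pure kit and made into 12 Illumina libraries, per the labels' protocols. The authors deposited RPKM values in 2 tables, per the file headers, on the build mm10, per the submitters' processing notes. The sources used here name no aligner, counting tool or annotation and do not say whether strand was used. Titles gave the groups. Reads were recovered from the RPKM steps and came out whole within 0.01 reads for 100% of 21134 genes above 0. Replicate pairs differed by 9.41 to 396 in chi-square per degree of freedom. Counting errors cover sampling of reads only.

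Tests were two-sided, by limma 3.58.1 in R 4.3.3 with an intensity trend, on log2(RPKM + 1) of genes with a mean of at least 1 RPKM, with Benjamini-Hochberg adjustment over all genes and a threshold of 0.05. Fold changes on this scale understate low genes. The test was tried on simulated data first. Alternatives covered scaling, filter, pseudocount, a voom fit on the recovered reads, 1 fit of all 12 libraries, a replicate block and each library left out. Named were all 8 members, up to 2 genes per list by p and the 2 genes most like each member. List genes that passed without miR499 3, and Rn18s-rs5 and Gm26917, were picked with their values in view. The members and lists were chosen with earlier results of these data known. Python 3.11.15 with pandas 2.3.3 was used for seed matches. No sample column was left out (0 unused).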

Additional observations from a re-analysis of the deposited data

Results flagged for a closer look

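Ccne1 and Cdk4 are listed because every miR184 library lay above the mean of controls 1 to 3 and every miR499 library below the mean of controls 4 to 6. The miR499 change minus the miR184 change was -0.59 for Ccne1 (adjusted p = 0.527, limma) and -0.32 for Cdk4 (adjusted p = 0.538, limma), so neither passed with all 12 libraries. Without miR499 3 the difference of Cdk4 was -0.28 ± 0.10 (SE; adjusted p = 0.127, limma).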

How the results depend on the processing

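All 8 genes kept to the same side of the threshold with miR184 under every alternative run, with adjusted p-values of 0.626 to 1 by limma. The count of all genes passing was 0 to 2 with single libraries left out, 2 being without control 1, and 2 with the replicate block. Same-numbered libraries of the miR184 table did not deviate together (correlations of 0.062, -0.048 and -0.028), so the block joins a shared number only. No paired analysis was possible for miR499 because its titles share no number with controls 4 to 6. For miR499 the count ranged from 0 to 1681 with single libraries left out, and was 1376 without miR499 3 under median-of-ratios scaling, where Ccnd2 stood at 0.0945. For the difference it ranged from 0 to 789, with 789 without miR499 3 and 1 without control 1. Values that changed sign were those of Ccne2 with miR184 (-0.0015 with median-of-ratios scaling, -0.0436 to 0.0639 with single libraries left out), Ccnd2 with miR499 (-0.171 to 0.0579), Ccnd3 with miR499 (-0.3651 to 0.1273), and, for the difference, Ccnd2 (-0.044 with median-of-ratios scaling, -0.0795 to 0.1495 with single libraries left out) and Ccnd3 (-0.3904 to 0.102). Counting 6mers, 2 of the 8 genes had a match to miR-184-3p. With 3 libraries a group and 1 that stood apart, the spread of miR499 limits what can be called. In the labels, controls 4 to 6 share a mark in their descriptions that no miR499 library has, and what it stands for cannot be told apart from the transfection. The cause of each shift was not tested.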
